A study of Homo sapiens with 12 samples.

Results

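The nuclear genes for the subunits of the mitochondrial respiratory chain were followed in RNA-seq of NCIH838 cells, a lung adenocarcinoma line, in which MIB1 could be disrupted and BMP signaling switched on. Members were the protein-coding genes whose GENCODE v44 symbol begins with NDUFA, NDUFB, NDUFC, NDUFS, NDUFV, UQCR, COX4, COX5, COX6, COX7, COX8 or ATP5, together with SDHA, SDHB, SDHC, SDHD and CYC1. The rule used symbols and no measured value, and it found 99 of the 58302 genes in the count table. These were 37 subunits of complex I, 4 of complex II, 10 of complex III, 18 of complex IV (NDUFA4 included) and 18 of complex V. The other members were 8 complex I assembly factors of the NDUFAF series, the ATP synthase inhibitor ATP5IF1, the NDUFA4 paralog NDUFA4L2 and 2 readthrough genes. The names therefore do not equal the structural subunits, and counts below are given by complex.

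All libraries came from clonal MIB1-iKO cells, which carry a doxycycline-inducible Cas9 and a guide RNA against MIB1, an E3 ubiquitin ligase. There were 4 groups of 3 libraries. MIB1 WT cells received no doxycycline and MIB1 KO cells received 0.5 µg/mL, so that doxycycline, Cas9 cutting and the loss of MIB1 cannot be told apart. Every culture was held for 3 days in 50 nM LDN193189 (LDN189193 in the sample labels), an inhibitor of BMP type I receptors, and then treated for 24 h with 10 ng/mL BMP4. The inhibitor stayed on in the BMP-off groups and was replaced by DMSO in the BMP-on groups. Whether replicates were separate cultures is not given in the sources used here, so that P values measure the spread between these libraries, which may be technical.

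Complexes I to IV pass electrons from NADH and succinate to oxygen, and complexes I, III and IV pump protons out of the mitochondrial matrix as they do so. Complex V, the ATP synthase, lets the protons back in and makes ATP. Most subunits are encoded in the nucleus and imported, and a small hydrophobic core is encoded in mitochondrial DNA, so that the transcripts of each complex other than complex II come from both genomes. Nuclear subunit genes often carry promoter sites for NRF1, for ETS family factors such as GABP and for YY1.

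Total counts ranged from 19124010 to 29498000 per library, and the members held between 0.917% and 1.01% of them. MIB1 lay between 143.6 and 175.6 CPM (the share of a library's counts, TMM scaled) in the 6 WT libraries and between 31.0 and 34.4 in the 6 KO libraries. KRT8 and KRT18, keratins of simple epithelia, reached 192.0 and 165.5 CPM, whereas KRT19 did not pass 0.104. The lung lineage genes NKX2-1, SFTPB and SFTPC were at or below 0.0869 CPM in every library, and NAPSA did not pass 1.03, so that the defining markers of lung epithelium were at or near 0. The leukocyte gene PTPRC had no count in any library, COL3A1, PECAM1 and VWF stayed at or below 0.763 CPM, and COL1A1 of mesenchymal cells ranged from 11.0 to 41.0 CPM. With BMP-on in KO cells COL1A1 (log2 fold change 1.39, adjusted P = 0.000602) and KRT8 (0.61, adjusted P = 0.00413) rose and the epithelial gene EPCAM fell (-0.61, adjusted P = 0.00152). Of 5 listed epithelial genes, which also held KRT18, KRT19 and CDH1, 4 were tested, and in KO cells KRT8 alone had a positive value. EPCAM also fell past an adjusted P of 0.05 with BMP-on in WT cells. None of the 4 passed in the interaction between MIB1 state and BMP. The part of these genes in the results below was not tested, and in bulk samples fewer cells of a type and less RNA per cell cannot be told apart. In KO BMP-off replicate 2 and WT BMP-off replicate 1 the GC-rich genes stood low (Spearman's rho of -0.60 and -0.43 between GC content and deviation from the group mean over all genes), which touches many results below.

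Short sequences are printed for 2 members with GC-rich transcripts and 2 with GC-poor ones. Each line gives the first 90 coding bases, 5′ to 3′, of the transcript marked as canonical in GENCODE v44 (GRCh38), and no base is marked.
NDUFS7: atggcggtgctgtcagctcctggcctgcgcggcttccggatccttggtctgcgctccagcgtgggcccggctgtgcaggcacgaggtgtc
NDUFB7: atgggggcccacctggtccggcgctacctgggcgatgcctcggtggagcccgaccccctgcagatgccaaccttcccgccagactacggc
NDUFA5: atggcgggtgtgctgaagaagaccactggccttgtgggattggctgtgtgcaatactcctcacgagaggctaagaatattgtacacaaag
ATP5MG: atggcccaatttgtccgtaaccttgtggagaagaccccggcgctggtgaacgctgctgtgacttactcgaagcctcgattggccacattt
NDUFS7 lies on the plus strand of chr19:1383527-1395589 and its canonical transcript holds 66.9% G or C over 758 bases. NDUFB7 lies on the minus strand of chr19:14566078-14572066 with 64.9% over 535 bases. NDUFA5, on the minus strand of chr7:123536997-123557904, has 34.6% over 5496 bases, much of it outside the coding part, whose share is 42.5%. ATP5MG, on the plus strand of chr11:118401346-118433278, has 39.3% over 1121 bases. The printed stretches alone hold 70.0% (NDUFS7), 71.1% (NDUFB7), 50.0% (NDUFA5) and 54.4% (ATP5MG). The low content of NDUFA5 and ATP5MG is thus not seen in the bases shown. Where a GC content is given below it is that of the gene's longest transcript, for which the 90 tested members had a median of 46.6% (from 34.1% to 64.9%) and all tested genes a median of 47.8%.

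A second feature not used by the rule was searched in promoters. RefSeq promoter windows on GRCh38.p14, from 250 bases before to 50 after a start, were at hand for 78 of the 99 members. The word GCGCATGC, a core of the NRF1 site, was found on either strand in 16 of the 78 (20.5%), against 6.31% of the tested genes with a window and 3.68% of all 27305 genes with one. The word CCGGAAG of ETS factors was found in 23 (29.5%), against 21.9% and 12.2%. The word AAGATGGC of YY1 was found in 13 (16.7%), against 6.27% and 3.52%. At least 1 of the words was present in 40 members (51.3%), against 30.8% of the tested genes and 17.6% of all genes with a window. At least 2 were present in 10 members (12.8%), against 3.53% and 1.71%. The ETS word ends in the AAG with which the YY1 word begins, but in 0 members did the 2 overlap in this way. A match describes these letters and shows no binding.

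The 250 bases before the start are printed for SDHB and COX5B, which were chosen because they hold both the NRF1 and the ETS word and overlap no annotated exon. Capitals mark the words, the NRF1 word as its reverse complement. A second ETS word of COX5B begins in the last 5 bases of the stretch and runs past the start, and it is left in lower case. SDHB, the iron-sulfur subunit of complex II, lies on the minus strand and the stretch is chr1:17054033-17054282. COX5B, a structural subunit of complex IV, lies on the plus strand and the stretch is chr2:97645812-97646061.
SDHB: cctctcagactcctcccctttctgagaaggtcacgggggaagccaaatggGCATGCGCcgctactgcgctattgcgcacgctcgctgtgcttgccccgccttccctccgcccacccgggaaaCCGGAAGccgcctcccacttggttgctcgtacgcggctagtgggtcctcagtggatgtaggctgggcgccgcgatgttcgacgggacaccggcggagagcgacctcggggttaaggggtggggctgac
COX5B: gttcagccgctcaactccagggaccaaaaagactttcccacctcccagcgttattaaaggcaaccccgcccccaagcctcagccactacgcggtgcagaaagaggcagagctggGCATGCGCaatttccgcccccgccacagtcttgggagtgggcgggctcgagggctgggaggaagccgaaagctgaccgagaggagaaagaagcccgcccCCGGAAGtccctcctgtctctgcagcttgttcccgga

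The level of the members varied widely, and 9 of the 99 were too low to be tested. RPKM, the deposited measure, divides by the length of the gene model and by library size. It allows levels of different genes to be compared only as far as that length matches the transcripts present. The highest mean over the 12 libraries was that of ATP5F1B, the catalytic β subunit of the ATP synthase, at 678 RPKM (from 644 to 724). COX8A of complex IV followed at 496 RPKM and NDUFS5 of complex I at 287 RPKM. The median RPKM of members with counts was 80.9 in complex V, 73.6 in complex III, 42.9 in complex IV, 35.3 in complex I and 16.1 in complex II. Within complex II, SDHB stood at 187 RPKM, SDHA, the flavoprotein subunit, at 24.4, and the membrane anchors SDHC and SDHD at 5.99 and 7.73, although the 4 proteins are found once each in the complex. The order depends on the division by length, since in CPM SDHC stood above SDHA (76.9 against 61.2 in WT BMP-off). The assembly factors had a median of 8.59 RPKM.

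**Figure D1:**
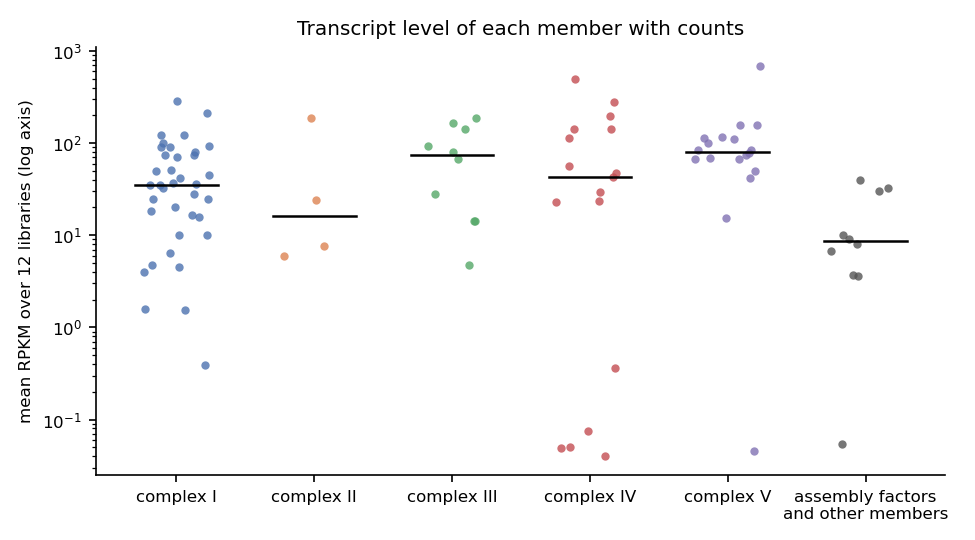
Mean RPKM over the 12 libraries (log axis) of each member with counts, by complex, with points for genes and bars for medians. ATP5F1B stands highest at 678 RPKM. A low group under 0.1 RPKM holds isoforms such as COX6A2 and COX7A1, while the testis form COX6B2 stands at 0.359 RPKM.

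In most isoform families 1 member was expressed and the tissue-specific form was low or silent. COX4I1 reached 197 RPKM and COX4I2, its counterpart of lung and hypoxic cells, had no count in any library. COX6A1 stood at 114 RPKM and the heart and muscle form COX6A2 at 0.0494. COX6B1 stood at 278 RPKM and the testis form COX6B2 at 0.359. COX7A2 and COX7A2L, the latter a supercomplex factor, were at 141 and 22.9 RPKM, and the muscle form COX7A1 was at 0.0751. COX7B2, COX8C, ATP5MGL and NDUFA4L2 lay between 0.0407 and 0.0546 RPKM. The 3 genes for the same c subunit of the ATP synthase, ATP5MC1, ATP5MC2 and ATP5MC3, were all expressed, at 117, 110 and 67.7 RPKM. Both UQCRH and its near copy UQCRHL had counts, at 91.9 and 14.4 RPKM, and reads can be shared between them. In all, 9 members were too low to be tested, among them 3 with no count in any library (COX4I2 and the readthrough genes ATP5MF-PTCD1 and NDUFC2-KCTD14).

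Some members had pseudogenes with a row and counts of their own. Of the members, 47 had at least 1 pseudogene row, with or without counts, and 179 rows of this kind were found. NDUFV2, a core subunit of the NADH-oxidizing module, had a mean of only 17.6 counts per library, whereas its pseudogene NDUFV2P1 had 247.5, or 93.4% of the pair. COX6A1 had 27.8% of the counts in pseudogene rows, ATP5PD 16.2%, ATP5MC1 12.5%, ATP5MC2 11.0% and NDUFA4 10.6%, and NDUFB4 had a mean of 314.7 counts in such rows beside 1933 of its own. The level of NDUFV2 is thus uncertain. In 74 of the 96 members with counts the share was under 1%, which includes members without any pseudogene row. How reads that match both a member and a pseudogene were assigned was not tested.

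Levels differed little between the 4 groups. For each tested member the highest group mean was compared with the lowest, and the median ratio was 1.08. The ratio was under 1.1 in 52 of the 90 and under 1.2 in 77, and over 1.5 in 6. For example, ATP5F1B had 1239 ± 18.9, 1172 ± 10.2, 1204 ± 14.7 and 1175 ± 23.8 CPM (SD, n = 3) in WT BMP-off, WT BMP-on, KO BMP-off and KO BMP-on. COX6B1, a subunit of complex IV on the side of the intermembrane space, had 254.0 ± 7.41, 247.1 ± 8.81, 246.0 ± 1.90 and 250.8 ± 2.22 CPM in the same order. In COX6B1 the WT groups overlapped and KO BMP-on (249.03 to 253.28) lay just above KO BMP-off (244.27 to 248.01) without passing the test (adjusted P = 0.666), and ATP5F1B was slightly higher in WT BMP-off than in WT BMP-on without passing the test (adjusted P = 0.265).

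Summed over the subunits of a complex, the mean was highest in WT BMP-off for complexes II to V and lowest in KO BMP-off for complexes I to IV, and no test was made of the sums. Complex I summed to 2489 ± 104, 2447 ± 49.6, 2355 ± 82.7 and 2498 ± 24.1 CPM in WT BMP-off, WT BMP-on, KO BMP-off and KO BMP-on (SD, n = 3). Complex III summed to 1234 ± 63.0, 1178 ± 19.8, 1141 ± 74.9 and 1178 ± 10.2 CPM, and complex IV to 1619 ± 90.7, 1580 ± 47.4, 1539 ± 41.8 and 1600 ± 13.4 CPM. In complexes I, III and IV the lowest of all 12 libraries was KO BMP-off replicate 2 (2261, 1055 and 1497 CPM) and the highest was WT BMP-off replicate 2. Complex V summed to 3786 ± 103 CPM in WT BMP-off and to 3613 ± 45.2, 3674 ± 76.3 and 3625 ± 81.3 CPM in the others. Complex II held closest together, with 367.4 ± 7.94, 352.2 ± 2.65, 350.8 ± 0.829 and 362.0 ± 5.76 CPM.

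The BMP response in WT cells, BMP-on against BMP-off, asked whether the chain responds to the ligand while MIB1 is present. By edgeR's quasi-likelihood test with Benjamini-Hochberg adjustment, 0 of the 90 tested members passed an adjusted P of 0.05, in a comparison in which 3.92% of all 17188 tested genes passed. At an unadjusted P under 0.05 there were 5 members (5.56%, against 15.3% of all genes), and DESeq2 and limma-voom also called 0. Among members with a mean of at least 50 counts the largest positive log2 fold changes were 0.35 ± 0.28 (SE) for ATP5F1D, the δ subunit of the ATP synthase, and 0.27 ± 0.26 for NDUFA11. The largest negative ones were -0.15 ± 0.062 for UQCRC1, a core subunit of complex III, and -0.13 ± 0.049 for ATP5PO of the ATP synthase stalk. None of these 4 passed (adjusted P = 0.632, 0.691, 0.252 and 0.193). The 95% interval lay within 0.5 of zero on the log2 scale for 82 of the 90 members, and the median log2 fold change was -0.04, beside 0.00 for all genes. A positive value was seen in 28 members, 31.1%, against 50.5% of all genes, and in 2 of the 17 tested subunits of complex V.

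In KO cells the BMP response was the only one of the 5 comparisons in which members passed. There were 7 of 90 (7.78%), against a background of 22.0% of all genes. The 5 that rose, against 11.1% of all genes that rose, were 4 subunits of complex I (NDUFS7, NDUFA13, NDUFA2 and NDUFC1) and 1 of complex III (UQCRQ). The 2 that fell, against 10.9% of all genes, were the complex V subunit ATP5MG and the assembly factor NDUFAF2. The share called among the members was below that among all genes. The median log2 fold change of the members was 0.04, beside 0.01 over all genes, and it ran from 0.0044 (without KO BMP-on replicate 3) to 0.050 when single libraries were left out. By complex it was 0.07 in complex I, 0.02 in complex II, 0.00 in complex III, 0.04 in complex IV and -0.04 in complex V, and 53 of the 90 were positive (58.9%, against 50.9% of all genes).

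NDUFS7, which holds the iron-sulfur cluster that hands electrons to ubiquinone, had the largest change. It read 3.59, 1.57 and 5.09 CPM in KO BMP-off replicates 1 to 3 and 7.01, 6.63 and 6.14 CPM in KO BMP-on. All KO BMP-on libraries were above all KO BMP-off libraries, and KO BMP-off replicate 2 was the lowest of the 12, while WT libraries lay between 3.77 and 5.57 CPM. The log2 fold change was 0.95 ± 0.27 (SE, adjusted P = 0.0285). NDUFS7 was low for a core subunit, at 1.55 RPKM and a mean of 122.3 counts per library. It overlaps 2 antisense genes, from which reads cannot be told apart if strand was not used in counting.

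NDUFA13, also known as GRIM-19, is a membrane arm subunit of complex I. It read 43.1, 29.2 and 55.5 CPM in KO BMP-off and 67.7, 63.0 and 62.8 CPM in KO BMP-on, so that the groups did not overlap and replicate 2 was again lowest. The log2 fold change was 0.60 ± 0.18 (adjusted P = 0.0372). WT libraries read 45.7 to 59.7 CPM with BMP-off and 55.1 to 56.1 CPM with BMP-on. Exons of YJEFN3 and of ENSG00000258674 overlap the gene on the same strand.

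NDUFA2, an accessory subunit of the NADH-oxidizing module, read 37.7, 33.9 and 39.1 CPM in KO BMP-off and 45.5, 44.4 and 44.6 CPM in KO BMP-on (log2 fold change 0.28 ± 0.074, adjusted P = 0.0131). Its replicates were close and its groups separate, and it was the only member to pass with each of the 12 libraries left out in turn. NDUFC1, a small subunit of the membrane arm, read 32.9, 29.8 and 33.4 CPM against 36.7, 36.5 and 37.2 CPM (log2 fold change 0.20 ± 0.062, adjusted P = 0.0276). UQCRQ, a small subunit of complex III, read 138.0, 111.0 and 130.5 CPM against 147.7, 149.0 and 151.7 CPM (log2 fold change 0.24 ± 0.076, adjusted P = 0.0339). Both had separate groups with KO BMP-off replicate 2 lowest. NDUFA2, NDUFC1 and UQCRQ each overlap an exon of a gene on the other strand (IK and TMCO6, NAA15, and GDF9), and NDUFC1 also overlaps MGARP on its own strand.

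Of the members that fell, ATP5MG, subunit g of the membrane part of the ATP synthase, read 90.9, 89.6 and 81.0 CPM in KO BMP-off and 75.9, 77.9 and 79.0 CPM in KO BMP-on. The groups were separate by a small gap, and the log2 fold change was -0.17 ± 0.056 (adjusted P = 0.0392). NDUFAF2, an assembly factor that binds late intermediates of complex I, read 3.73, 3.37 and 2.65 CPM against 1.99, 2.56 and 2.29 CPM (log2 fold change -0.53 ± 0.18, adjusted P = 0.0455). NDUFAF2 had a mean of only 67.5 counts per library, and its 2 groups also lay close to each other.

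**Figure D2:**
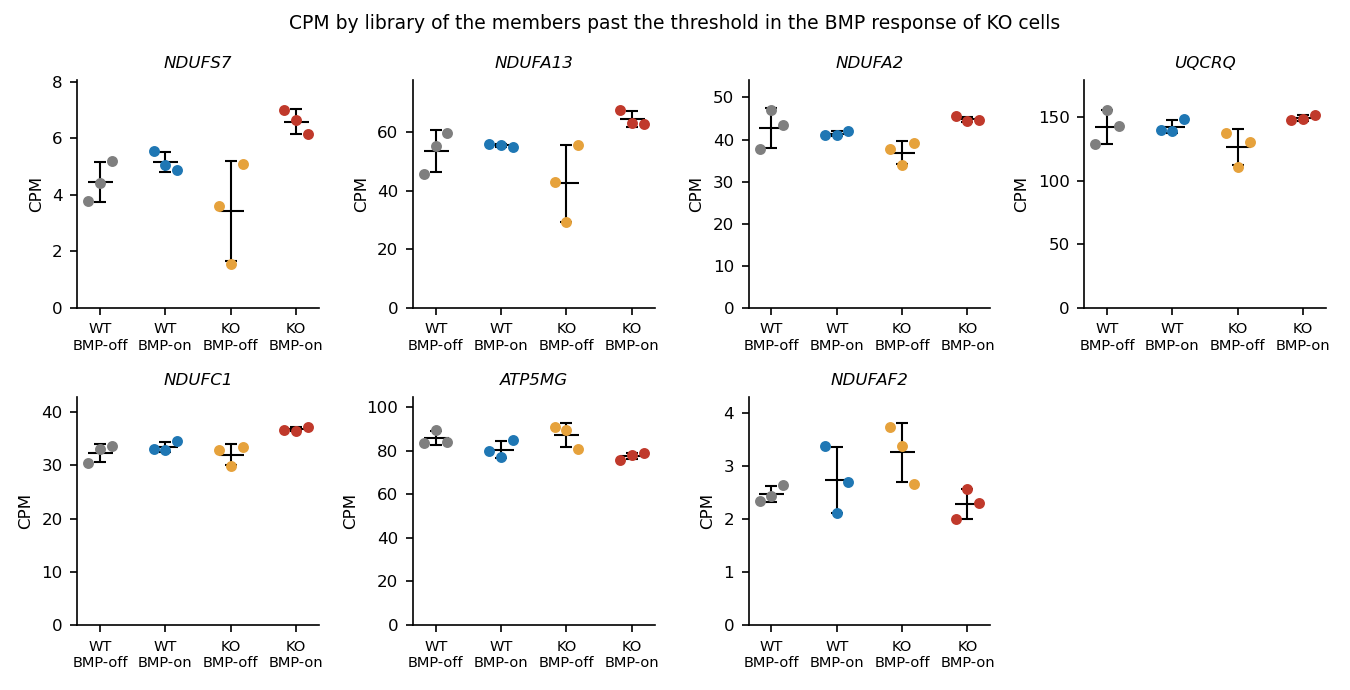
CPM (TMM scaled, axes from 0) of the 7 members past an adjusted P of 0.05 in the BMP response of KO cells, with points for the 3 libraries of each group in replicate order and bars for mean ± SD. NDUFS7 runs from 1.57 CPM in KO BMP-off replicate 2 to 7.01 CPM in KO BMP-on replicate 1.

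No member reached the study's second threshold, an absolute log2 fold change of 1, together with the adjusted P. This held in the BMP response of WT cells, where 0.425% of all genes passed both, in that of KO cells (1.66%), in KO against WT under BMP-on (0.140%) and under BMP-off (0.0116%), and in the interaction (0%). In the BMP response of KO cells the 95% interval reached 1 in 6 members, ATP5F1D, COX6B2, NDUFA11, NDUFA13, NDUFB7 and NDUFS7, and stayed within 0.5 of zero in 77.

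**Figure D3:**
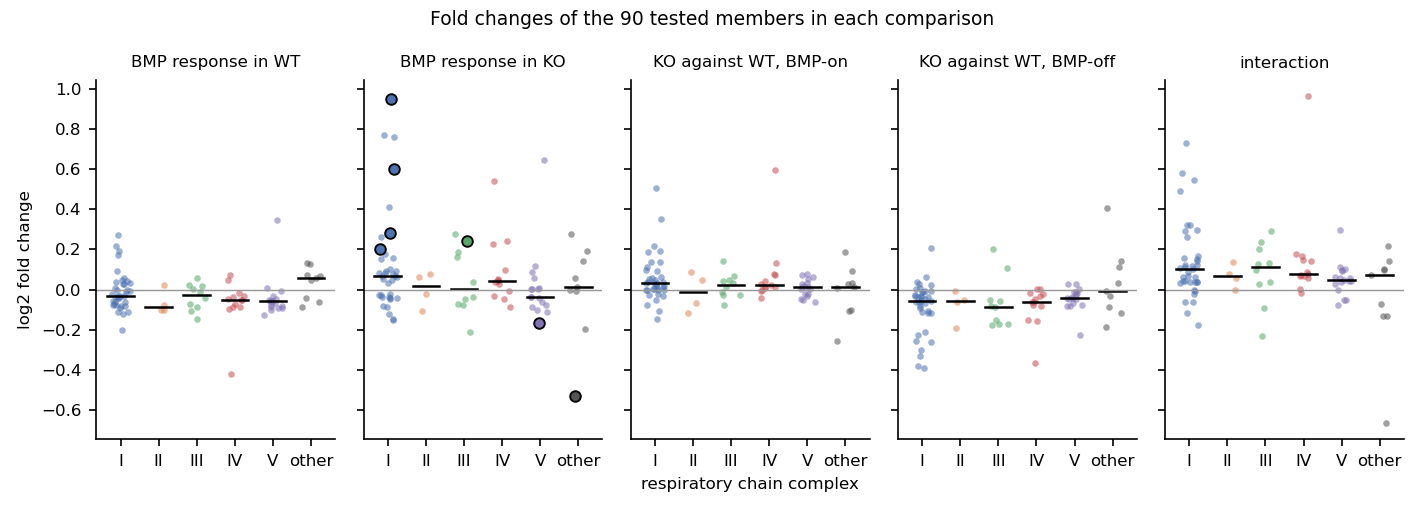
Log2 fold change of the 90 tested members by complex in the 5 comparisons, with bars for medians and large outlined points for members past an adjusted P of 0.05. The 7 outlined points are all in the BMP response of KO cells, between -0.53 and 0.95.

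Fold changes moved with GC content. Over the 90 members Spearman's rho between GC content and the log2 fold change in the BMP response of KO cells was 0.51, and over all genes with a known transcript it was 0.45; genes share the same libraries, and these are descriptions. Single libraries showed the trend against their own group mean. That mean includes the library itself, so that a low library raises the others of its group and signs within a group are not independent. Among members rho was -0.63 in KO BMP-off replicate 2 and 0.69 in replicate 3, -0.48 in WT BMP-off replicate 1 and 0.55 in replicate 3, and 0.59 and -0.61 in KO BMP-on replicates 1 and 3. The 21 members with at least 55% GC had a median deviation of -0.26 (log2) from the group mean in KO BMP-off replicate 2 and of 0.21 in replicate 3, whereas the 24 members with at most 42% GC had 0.04 and -0.06. NDUFB7 (64.9% GC), an accessory subunit of the membrane arm, read 36.95, 18.4 and 44.8 CPM in KO BMP-off and 62.05, 57.6 and 51.6 CPM in KO BMP-on, and missed the threshold at a log2 fold change of 0.77 ± 0.26 (adjusted P = 0.0590).

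After each library's GC trend was removed by loess, rho over members fell to 0.03 and 14 of 90 members passed (15.6%, against 24.6% of all genes). Of these, 10 rose (10.8% of all genes) and 4 fell (13.7%). The 7 members that had passed and these 14 shared 3, which were NDUFS7 (log2 fold change 0.68, adjusted P = 0.00804), NDUFA13 (0.29, adjusted P = 0.00484) and UQCRQ (0.26, adjusted P = 0.0355). NDUFAF2 (-0.43, adjusted P = 0.0701) and ATP5MG (-0.10, adjusted P = 0.142) no longer passed. NDUFA2 (0.09, adjusted P = 0.239) and NDUFC1 (0.02, adjusted P = 0.810) did not pass either, but both passed when the GC content of the canonical transcript was used (0.26, adjusted P = 0.00240, and 0.22, adjusted P = 0.00460), and their longest transcripts have 57.7% and 57.4% GC and the canonical ones 51.6% and 49.0%. NDUFAF2 passed with it too (-0.48, adjusted P = 0.0452). The choice of the canonical transcript was made after the data were seen. With it 20 members passed, and the share of all genes is not given here.

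UQCRC1 passed with the correction and not without it. It read 332.4, 351.9 and 359.8 CPM in WT BMP-off, 299.4, 326.7 and 316.5 CPM in WT BMP-on, 318.5, 273.9 and 331.2 CPM in KO BMP-off and 307.7, 300.2 and 284.3 CPM in KO BMP-on. WT BMP-off was above WT BMP-on in every library, while the KO groups overlapped. With GC correction it fell in the BMP response of WT cells (-0.20, adjusted P = 0.000247) and of KO cells (-0.26, adjusted P = 3.74e-06) and was lower in KO than in WT under BMP-on (-0.13, adjusted P = 0.0152), the only member to pass in those comparisons of WT cells and of KO against WT. Without the correction the log2 fold changes were -0.15, -0.05 and -0.08 and none passed, although the first did (-0.18, adjusted P = 0.0197) without the 2 libraries low in GC-rich genes.

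**Figure D4:**
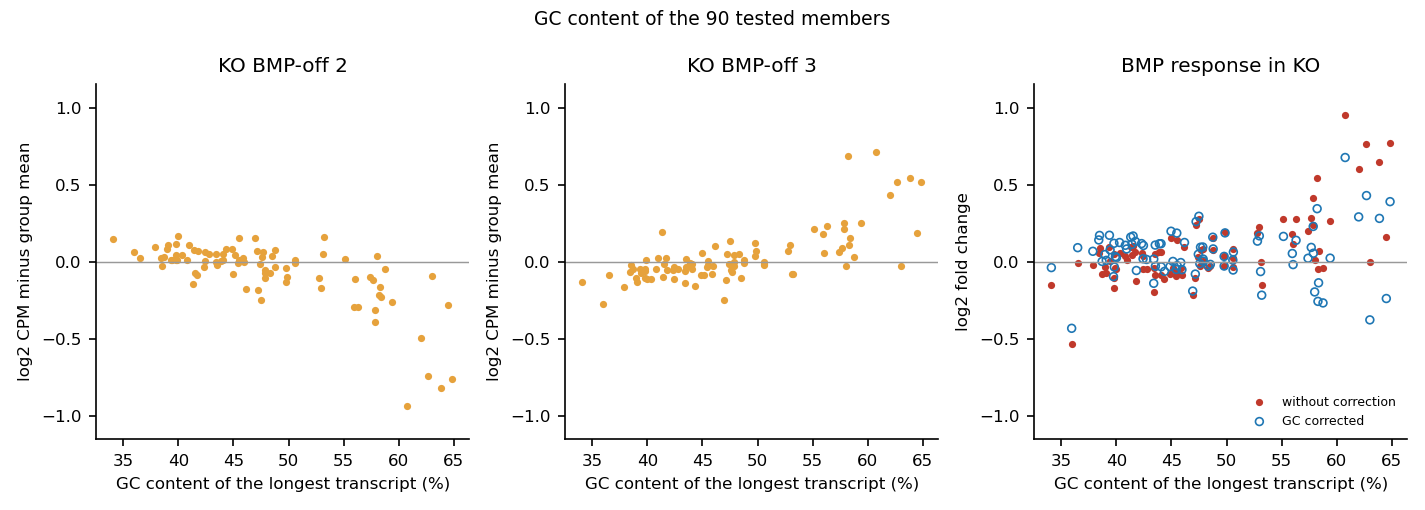
The left and middle panels plot log2 CPM minus the group mean against GC content (%) for the 90 tested members in KO BMP-off replicates 2 and 3, and the right panel plots the log2 fold change in the BMP response of KO cells with and without GC correction. The trend has opposite signs in the 2 libraries (rho -0.63 and 0.69). Both share the same group mean, so that a low library raises the values of the others and the signs are not independent.

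The number of members passing in the KO response also depended on single libraries. The share of all genes passing in each of these fits is not given here, so that a change may be one of the whole table. Without KO BMP-on replicate 1 or replicate 3, 1 member (NDUFA2) passed, and without KO BMP-off replicate 3, 22 passed. Counts were 3 without KO BMP-off replicate 1, KO BMP-off replicate 2 or KO BMP-on replicate 2, and 13 without WT BMP-off replicate 1. Without KO BMP-off replicate 2 and WT BMP-off replicate 1 together, the 2 libraries low in GC-rich genes, 9 members passed, of which 4 were shared with the 7 (NDUFS7, NDUFA13, NDUFA2 and UQCRQ). The value of NDUFS7 was then 0.62 (adjusted P = 0.00301) and that of NDUFA13 was 0.40 (adjusted P = 0.000804). When the fit held the 6 KO libraries alone, 1 member (NDUFA2) passed.

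KO against WT cells with BMP-on compared cells given doxycycline, with MIB1 disrupted, to cells without it while the ligand acted. Here 0 of 90 members passed in edgeR, against 3.67% of all genes, and DESeq2 and limma-voom called 0. An unadjusted P under 0.05 was seen in 1 member (1.11%, against 13.8% of all genes). The largest positive log2 fold changes among members with a mean of at least 50 counts were 0.35 ± 0.26 for NDUFS7 and 0.22 ± 0.18 for NDUFA13, and the largest negative ones were -0.26 ± 0.18 for NDUFAF2 and -0.15 ± 0.078 for NDUFA5 of the ubiquinone-reducing module. Intervals lay within 0.5 of zero for 82 members. The median was 0.02, with 61 members positive (67.8%, against 50.8% of all genes).

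KO against WT cells with BMP-off compared the genotypes under receptor inhibition. Again 0 of 90 members passed in edgeR, where 0.0407% of all genes did, and DESeq2 and limma-voom called 0. An unadjusted P under 0.05 was seen in 7 members (7.78%, against 10.2% of all genes). The median was -0.05, beside -0.01 for all genes, and 18 members were positive (20.0%, against 47.5%). All 5 complexes had a negative median, between -0.09 in complex III and -0.04 in complex V. The count of positive members was 18 after GC correction too, and the median without the 2 libraries low in GC-rich genes was -0.07. With a mean of at least 50 counts, NDUFB7 (-0.39 ± 0.26) and NDUFS7 (-0.38 ± 0.29) had the largest negative values, and NDUFAF2 (0.41 ± 0.18) and UQCRHL (0.20 ± 0.10) the largest positive ones. NDUFB7 and NDUFS7 are rich in GC (64.9% and 60.8%). Spearman's rho between GC content and the log2 fold change over members was -0.54 here, and -0.08 after GC correction. This comparison shares the KO BMP-off libraries with the BMP response of KO cells and the WT BMP-off libraries with that of WT cells, so that its values are not separate evidence from theirs.

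The interaction, the BMP response in KO cells minus that in WT cells, tested whether the responses differed. An unadjusted P under 0.05 was seen in 4 members, and the share of all genes at that level is not given here. No member passed in edgeR (0 of 90, against 0.0931% of all genes), and DESeq2 and limma-voom called 0. It is therefore not shown that any of the 7 members responded differently in KO and WT cells. Among members with a mean of at least 50 counts the largest values were 0.73 ± 0.39 for NDUFS7 and 0.58 ± 0.37 for NDUFB7, and the lowest were -0.67 ± 0.26 for NDUFAF2 and -0.23 ± 0.14 for UQCRHL. These values were not corrected for GC content, with which the interaction had a rho of 0.51 over members, and of -0.05 after GC correction. The median was 0.07 with 71 of 90 positive (78.9%, against 52.4% of all genes), and by complex it was 0.10, 0.07, 0.11, 0.08 and 0.05 in complexes I to V. COX6B2, with a mean of only 24.8 counts, had 0.96 ± 0.48 (adjusted P = 0.489). Without the 2 libraries low in GC-rich genes, 3 members passed, namely NDUFA2 (0.36, adjusted P = 0.0286), NDUFA13 (0.45, adjusted P = 0.0399) and NDUFB7 (0.46, adjusted P = 0.0433). The share of all genes passing in that fit is not given here. Both libraries are BMP-off and were left out after the data were seen, while KO BMP-on replicate 3 (rho -0.61 over members) was kept. With each form of GC correction 0 members passed in the interaction.

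Complex I subunits were also read by module, with no test between modules. In the BMP response of KO cells the median log2 fold change was 0.09 over the 10 subunits of the NADH-oxidizing module, 0.05 over the 6 of the ubiquinone-reducing module and 0.06 over the 21 of the membrane arm, and 1, 1 and 2 of them rose. After GC correction 0, 1 and 3 of them passed, where 24.6% of all genes did. An unadjusted P under 0.05 was then seen in 1, 3 and 11, and the share of all genes at that level is not given here. Among core subunits NDUFS8, an iron-sulfur subunit, had 0.41 ± 0.15 (adjusted P = 0.0741), NDUFV1, the NADH-binding subunit, 0.26 ± 0.11 (adjusted P = 0.121), NDUFS3 0.03 and NDUFS1, the largest subunit, -0.12 (adjusted P = 0.0595). The core of complex III gave 0.16 for CYC1 (cytochrome c1), -0.04 for UQCRFS1 (the Rieske protein) and -0.08 for UQCRC2. ATP5F1A and ATP5F1B, the α and β subunits of the catalytic head, gave -0.06 and -0.04. ATP5IF1, which blocks ATP hydrolysis by complex V, had 0.19 ± 0.070 (adjusted P = 0.0613), and NDUFAB1, the mitochondrial acyl carrier protein, -0.03. Complex II gave -0.02, 0.06, 0.08 and -0.11 for SDHA, SDHB, SDHC and SDHD, and none of the values in these sentences passed. After GC correction CYC1 changed sign and fell (-0.24, adjusted P = 0.00442), while SDHB (0.12, adjusted P = 0.0245) and ATP5IF1 (0.19, adjusted P = 0.0283) rose.

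The genes of the chain encoded in mitochondrial DNA rose in part in the same comparison. All 13 were tested and 4 rose with BMP-on in KO cells, against 11.1% of all genes. MT-ND2 had a log2 fold change of 0.30 ± 0.058 (adjusted P = 0.00163), MT-ATP6 0.29 ± 0.074 (adjusted P = 0.0137), MT-ND1 0.27 ± 0.072 (adjusted P = 0.0147) and MT-CYB 0.23 ± 0.065 (adjusted P = 0.0204). The median of the 13 was 0.21, beside 0.04 for the nuclear members. With GC correction 4 passed as well. In the other 4 comparisons 0 of 13 passed. An unadjusted P under 0.05 was seen in 2 (WT response, against 15.3% of all genes), 2 (KO against WT, BMP-on, 13.8%), 0 (BMP-off, 10.2%) and 2 (interaction). The share of counts from these genes ranged from 1.04% in KO BMP-off replicate 1 to 1.34% in KO BMP-on replicate 1.

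Other genes of the pathway were read from lists. Of 47 tested assembly factors outside the NDUFAF series, 6 rose in the BMP response of KO cells (DMAC1, DMAC2, TIMMDC1, COA4, CMC1 and SDHAF1) and 2 fell (COA1 and ATPAF1), with log2 fold changes from -0.22 to 0.35, where 11.1% of all genes rose and 10.9% fell. DMAC1, DMAC2 and TIMMDC1 act on the membrane arm of complex I, COA4 and CMC1 on complex IV, SDHAF1 on complex II and ATPAF1 on complex V. In the other 4 comparisons 0 of the 47 passed. An unadjusted P under 0.05 was seen in 3 (WT response, against 15.3% of all genes), 5 (KO against WT, BMP-on, 13.8%), 7 (BMP-off, 10.2%) and 6 (interaction). After GC correction 9 rose and 3 fell (10.8% and 13.7% of all genes), and SDHAF1 no longer passed (-0.02, adjusted P = 0.886). With the correction COA1 also fell in WT cells (-0.16, adjusted P = 0.0462), TIMMDC1 was lower in KO cells under BMP-off (-0.18, adjusted P = 0.0491) and CMC1 passed in the interaction (0.39, adjusted P = 0.0261).

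Of 14 tested regulators, 2 rose and 4 fell in the BMP response of KO cells, against 11.1% and 10.9% of all genes. ESRRA, a nuclear receptor that activates respiratory chain genes, rose from 17.9 ± 3.74 to 27.9 ± 1.30 CPM (log2 fold change 0.64 ± 0.13, adjusted P = 0.00315), which was 0.26 after GC correction. MYC rose from 22.97 ± 2.19 to 30.4 ± 1.71 CPM (0.40 ± 0.074, adjusted P = 0.000970) and was also higher in KO than in WT under BMP-on (0.31, adjusted P = 0.0228). TFAM, which packages mitochondrial DNA and starts its transcription, fell from 169.9 ± 11.7 to 138.4 ± 8.11 CPM (-0.30 ± 0.059, adjusted P = 0.00176). HIF1A, GABPB1 and YY1 fell by 0.18, 0.17 and 0.14 on the log2 scale, and of these YY1 passed after GC correction (adjusted P = 0.0128) while HIF1A and GABPB1 did not (0.114 and 0.194). PPARGC1A gave 0.03 and NRF1 -0.15, and neither passed (adjusted P = 0.873 and 0.127). MYC was the only regulator to pass outside the KO response, and after GC correction PPRC1, TFAM and YY1 passed in KO against WT under BMP-on as well.

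In neighbouring pathways of energy metabolism, 2 of 14 and 2 of 18 genes passed in the KO response, against 22.0% of all genes. Among the 14 genes of the tricarboxylic acid cycle and cytochrome c, SUCLG2, the GTP-specific subunit of succinyl-CoA ligase, fell in WT cells (-0.38 ± 0.058, adjusted P = 0.000899) and in KO cells (-0.48 ± 0.060, adjusted P = 2.4e-05) and was lower in KO than in WT under BMP-on (-0.24, adjusted P = 0.0344). MDH2 rose in KO cells (0.21, adjusted P = 0.02355) and the other 12 did not pass without GC correction. Among 18 glycolysis genes the glucose transporter gene SLC2A1 fell in WT cells (-0.28 ± 0.057, adjusted P = 0.00790) and in KO cells (-0.43 ± 0.058, adjusted P = 5.9e-05) and was lower in KO than in WT under BMP-on (-0.33, adjusted P = 0.00307). HK2 fell in KO cells (-0.28, adjusted P = 0.000931), and no gene of either list passed in the interaction or under BMP-off. After GC correction HK2 passed in the interaction (-0.28, adjusted P = 0.0344), and in the KO response, where 24.6% of all genes then passed, 6 of the 18 glycolysis genes fell (ENO2, GAPDH, GPI, HK2, SLC2A1 and TPI1), and 5 of the 14 of the cycle passed, with DLST, IDH3B and OGDH lower in addition.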

How the data were processed

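The authors aligned 50-base single-end reads, cleared of ribosomal sequence, to GRCh38 by GSNAP, and HTSeqGenie gave the counts over RefSeq exons. The deposited table holds whole-number counts without normalization. Their second deposited table, RPKM, served for levels and alternatives. The sources name a SMART-Seq V4 kit for low input and a TruSeq stranded kit for regular input, but not which made these libraries or whether counting used strand. Genes were tested with edgeR 4.0.16 in R 4.3.3 (TMM, default low-count filter, robust quasi-likelihood fit over all 12 libraries), and P values were adjusted by Benjamini-Hochberg over 17188 genes. Passing meant an adjusted P of at most 0.05. GC correction subtracted, per library, a loess trend (span 0.4) against the GC content of the longest GENCODE v44 transcript. DESeq2, limma-voom and limma on RPKM were alternatives. Scripts were tested on simulated data. Members and lists were chosen with earlier results of these data known. Named were up to 5 passing members in each direction (with none, the 2 largest of each sign with a mean of at least 50 counts), the core subunits (1 result is not reported here), the isoform families, ATP5IF1, NDUFAB1, the 3 highest and those at 0; others, such as NDUFB7 and UQCRC1 in the GC paragraphs, were chosen after their values were seen. Counts limit precision, and intervals cover these libraries only.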

Additional observations from a re-analysis of the deposited data

How the results depend on the processing

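In the BMP response of KO cells, 7 members passed, where 22.0% of all genes did. The number was 12 with DESeq2, 14 with limma-voom, 11 with no filter on low counts, 1 with the groups compared fitted alone, 14 with GC correction, 19 with GC and length correction, 20 with GC correction on the canonical transcript, 0 on log2(RPKM + 1) with no filter and 0 with the fold threshold of 1. It ran from 1 to 22 when single libraries were left out. With GC correction 24.6% of all genes passed. For the other alternatives of this section the share of all genes is not given. Their counts therefore do not show whether the members or the whole table moved. In the BMP response of WT cells, where 0 passed, it was 1 with GC correction, 1 with GC and length correction, 2 with GC correction on the canonical transcript and 1 without the 2 libraries low in GC-rich genes. In KO against WT with BMP-on it was 1 with the groups compared fitted alone, 1 with GC correction, 2 with GC and length correction and 1 on the canonical transcript. In the interaction it was 3 without the 2 low libraries, and from 0 to 1 with single libraries left out. With BMP-off it was 0 in all alternatives run. The causes were not tested. The 2 alternatives with the canonical transcript and without the low libraries were chosen after the data were seen.

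Deviations from the group mean had a correlation over 0.1 in 2 of 18 pairs of same-numbered libraries, at most 0.19. These deviations still held each library's GC trend, so that whether same-numbered libraries were paired cannot be told from them. The replicate block gave 6 members for the BMP response of KO cells, 0 elsewhere. The replicate block with GC correction gave 16 in KO cells, 2 in WT cells and 1 in KO against WT with BMP-on. The median over members kept its sign in all alternatives but 1 (KO against WT with BMP-on, -0.0032), and that of the KO response was 0.00072 on log2(RPKM + 1). Of 443 values not past the threshold, 190 changed sign in at least 1 of the 28 alternatives, so that directions of single uncalled members carry little. Of the tested members NDUFV2, COX6B2, NDUFA7 and NDUFAF2 had the fewest counts, with means from 17.6 to 67.5.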
